A study of Homo sapiens with 40 samples.

Results

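The step from 100 pM to 10 nM of PCB 126 was examined in HepaRG, a hepatic line of human origin whose differentiated cultures hold hepatocytes beside primitive biliary cells. PCB 126 is a coplanar polychlorinated biphenyl and acts as a ligand of the aryl hydrocarbon receptor, as dioxins do. The comparison holds 10 of the 40 libraries of the series, namely the 5 that the labels give as PCB_10nM and the 5 given as PCB_100pM, chosen by their labels alone. Differentiated cells of the same commercial stock were exposed from day 8 to day 14 of culture in medium with serum and DMSO, which the solvent control shared. The control libraries and the 1 µM libraries, 5 each, entered the same fit and are given where they place a gene on the dose series. Every value is an FPKM (fragments counted on a transcript, divided by its length and by how many fragments the library mapped) from ribosomal RNA-depleted total RNA, summed over all transcripts given under a gene name. Replicates are numbered by the run of library numbers, and the labels do not say whether they came from separate cultures, so the p-values measure the spread between these libraries.

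Genes known to respond to PCB 126 or dioxins through the receptor were listed with earlier results of these data known. Of the 14 tested, 13 had a log2 difference above 0 from 100 pM to 10 nM, against 11.4% of all genes. The mean of CYP1A1, which encodes a cytochrome P450 that oxidises polycyclic aromatic compounds, was 268 ± 113 at 10 nM against 86.2 ± 133 at 100 pM (SD, n = 5 each), and that of its neighbour CYP1A2 was 236 ± 134 against 47.9 ± 89.9. Lower means at 10 nM were found for COL3A1, a fibrillar collagen, with 3.3 ± 2.89 against 11.6 ± 5.6, and for KRT14, a keratin of basal epithelial cells, with 0.344 ± 0.214 against 2.69 ± 1.71 (SD, n = 5 for each). None of the 9755 genes tested had an adjusted p under 0.05 with all 20 libraries in the fit (limma with Benjamini-Hochberg adjustment, smallest adjusted p = 0.177), and 558 (5.72%) had an unadjusted p under 0.05. An ordinary linear model also gave 0, and array weights, which give less weight to libraries that deviate, gave 260, 103 higher (1.06%) and 157 lower (1.61%). A term for the run of library numbers (replicate block) gave 4, all lower. One library decided part of this, since 100 pM replicate 5 had CYP1A1 and CYP1A2 values within the range of the 10 nM libraries. Without it CYP1A1 and CYP1A2 passed the threshold as higher, and KRT14 and PLGLB1 as lower.

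The aryl hydrocarbon receptor is a transcription factor that waits in the cytosol with chaperones, moves to the nucleus when a dioxin-like ligand binds and pairs there with ARNT. The pair binds dioxin-responsive elements, whose shared core is GCGTG, in front of genes for drug-metabolising enzymes. Among the targets are also genes that limit the response, such as AHRR, a repressor that competes for ARNT, and TIPARP, an ADP-ribosyltransferase that acts on the receptor. In liver the induction of CYP1A1 and CYP1A2 is the usual sign that the receptor is active.

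The sequences in front of 5 genes that the comparison turns on are shown so that the core can be seen where it occurs. They run 5′ to 3′ on the strand of the gene, with each GCGTG core in capitals, read on either strand (as CACGC on the other one), and 2 cores that overlap make a single longer run of capitals. Those named start are RefSeq promoters of GRCh38.p14, from 250 bases before to 50 bases after the start of transcription. The one named upstream is the 300-base stretch with the most cores within 2000 bases before the CYP1A1 start, read from the GRCh38 genome.
CYP1A1 start, chr15:74725479-74725778, minus strand: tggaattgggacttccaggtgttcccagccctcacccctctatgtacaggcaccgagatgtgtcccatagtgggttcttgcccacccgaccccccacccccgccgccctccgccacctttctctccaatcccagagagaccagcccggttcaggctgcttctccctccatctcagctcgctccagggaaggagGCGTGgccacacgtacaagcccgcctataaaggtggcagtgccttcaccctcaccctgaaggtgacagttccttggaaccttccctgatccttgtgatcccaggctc
CYP1A1 upstream, chr15:74726489-74726788, minus strand: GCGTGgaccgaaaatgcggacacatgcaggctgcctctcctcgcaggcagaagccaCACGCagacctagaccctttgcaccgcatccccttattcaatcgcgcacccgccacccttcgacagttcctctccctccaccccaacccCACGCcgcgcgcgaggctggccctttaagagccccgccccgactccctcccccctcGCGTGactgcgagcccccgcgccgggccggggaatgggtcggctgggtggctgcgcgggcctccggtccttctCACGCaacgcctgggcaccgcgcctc
CYP1A2 start, chr15:74748595-74748894, plus strand: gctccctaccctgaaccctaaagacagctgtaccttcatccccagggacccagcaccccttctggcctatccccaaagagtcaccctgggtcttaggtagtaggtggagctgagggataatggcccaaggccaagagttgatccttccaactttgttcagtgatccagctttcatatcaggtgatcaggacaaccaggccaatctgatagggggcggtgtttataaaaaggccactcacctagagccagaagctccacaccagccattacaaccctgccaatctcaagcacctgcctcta
TIPARP start, chr3:156674340-156674639, plus strand: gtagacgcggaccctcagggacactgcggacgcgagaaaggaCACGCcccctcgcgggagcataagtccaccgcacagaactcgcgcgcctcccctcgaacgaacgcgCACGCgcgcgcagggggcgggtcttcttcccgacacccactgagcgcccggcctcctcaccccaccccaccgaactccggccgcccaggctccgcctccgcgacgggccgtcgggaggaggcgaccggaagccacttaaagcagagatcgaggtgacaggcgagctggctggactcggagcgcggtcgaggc
STC2 start, chr5:173328365-173328664, minus strand: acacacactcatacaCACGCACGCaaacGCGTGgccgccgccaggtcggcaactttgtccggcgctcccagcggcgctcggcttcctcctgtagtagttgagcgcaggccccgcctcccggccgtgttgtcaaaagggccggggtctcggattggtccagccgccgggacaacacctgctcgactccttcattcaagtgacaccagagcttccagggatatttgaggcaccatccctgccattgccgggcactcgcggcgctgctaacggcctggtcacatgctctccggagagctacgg
SERPINB2 start, chr18:63887455-63887754, plus strand: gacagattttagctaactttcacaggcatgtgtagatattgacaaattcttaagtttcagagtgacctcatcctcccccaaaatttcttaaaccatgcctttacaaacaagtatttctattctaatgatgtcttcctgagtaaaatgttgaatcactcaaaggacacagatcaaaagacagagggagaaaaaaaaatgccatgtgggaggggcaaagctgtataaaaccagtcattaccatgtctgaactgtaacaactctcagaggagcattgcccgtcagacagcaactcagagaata

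The CYP1A1 start held 1 core and its upstream stretch 5 of the 11 within 2000 bases. The STC2 start held 3 and the first of the 3 TIPARP starts held 2, whereas the other TIPARP starts and those of CYP1A2 and SERPINB2 held 0. Of all 35116 RefSeq promoters of this length 36.5% held at least 1 core, 12.7% at least 2 and 4.3% at least 3. Only CYP1A1 was searched upstream for its richest stretch, so the 5 cores there are not to be set against these shares. A match is a description of letters and no measure of binding, and a window with 0 matches says nothing of the receptor. No sequence is shown for CYP1B1, ALDH3A1, TAT, COL3A1 and KRT14.

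The libraries differed in ways that the groups do not explain. FPKM sums ran from 380622 to 511321 at 100 pM and from 265035 to 443868 at 10 nM, and the lowest sum belonged to 10 nM replicate 3, in which 29.7% of the FPKM lay in transcripts without a gene name. The study's alignment summary sets 5 of the 20 libraries apart by their share of multiply aligned read pairs, and these are replicates 3 and 5 at 10 nM, control replicate 5 and replicates 1 and 5 at 1 µM. No library at 100 pM is among them, so this property and the dose step move together in part. The median log2 difference of all genes, 10 nM minus 100 pM, was -0.27, and it was -0.02 after quantile normalization and 0.04 without the 5 libraries, so differences are to be read against this shift. At an unadjusted p under 0.05, 59 genes were higher and 499 lower as deposited, against 365 (3.74%) and 395 (4.05%) after quantile normalization. Shares at this level were not computed for other settings, so list counts given for those have no share beside them. Differences are those of log2(FPKM + 1), a scale on which the change of genes with low FPKM is understated.

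CYP1A1 and CYP1A2 lie side by side on chromosome 15 of GRCh38, CYP1A1 on the minus strand from 74719542 to 74725610 and CYP1A2 on the plus strand from 74748844 to 74756202. At 100 pM the CYP1A1 FPKM was 70.9, 36.4, 3.21, 1.09 and 319 in replicates 1 to 5, and at 10 nM it was 377, 349, 92.1, 228 and 292. The 100 pM libraries thus spanned from close to the control values, which lay between 0 and 7.69, up to the 10 nM values, and replicate 5 alone made the groups overlap. For CYP1A2 the 100 pM values were 15.9, 11.6, 1.98, 1.85 and 208, and the 10 nM values were 335, 398, 78.2, 233 and 133. Again replicate 5 stood with the 10 nM group while the other 4 libraries lay below all 10 nM values. The log2 difference was 3.35 (SE 0.91, limma adjusted p = 0.505) for CYP1A1 and 3.95 (SE 0.76, limma adjusted p = 0.177) for CYP1A2. Exact permutation tests of 5 libraries against 5 gave p = 0.0397 and p = 0.0238, unadjusted and 2-sided, where 0.00794 is the smallest p that 5 against 5 allow.

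SERPINB2, which encodes an inhibitor of the urokinase-type plasminogen activator, had 100 pM values of 3.18, 2.37, 1.39, 0.659 and 4.57 and 10 nM values of 29.6, 16.8, 3.58, 5.07 and 24. The groups met only between 10 nM replicate 3 and 100 pM replicate 5, and the log2 difference was 2.05 (SE 0.45, limma adjusted p = 0.177; exact permutation p = 0.0159). STC2, a secreted glycoprotein linked to stress responses and calcium, was at 2.37, 1.62, 0.853, 1.76 and 4.31 against 12.3, 8.88, 2.81, 5.49 and 12.7. Here too the overlap rested on those same libraries (log2 difference 1.51, SE 0.34, limma adjusted p = 0.177; exact permutation p = 0.0159). TIPARP had 9.46, 6.58, 4.37, 5.13 and 17.5 against 51.3, 36, 7.85, 19.4 and 38.9, a log2 difference of 1.63 (SE 0.42, limma adjusted p = 0.399). Its 10 nM replicate 3 lay among the 100 pM values, as it did for most of these genes.

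CYP1B1, an extrahepatic relative of the CYP1A enzymes, was at 53.1, 28.6, 20.2, 30.6 and 37.9 at 100 pM and at 158, 52, 38.2, 109 and 373 at 10 nM. Replicate 5 at 100 pM did not stand out for this gene, 2 of the 10 nM libraries lay within the 100 pM range, and the log2 difference was 1.67 (SE 0.53, limma adjusted p = 0.675). The long noncoding CYP1B1-AS1, which lies across the gene on the opposite strand, was at 3.32, 3.15, 2.27, 3.21 and 7 against 14.1, 10.2, 3.43, 7.75 and 10.4. Libraries were directional, but whether strand was used in quantification is not given in the sources used here, so reads of the antisense gene and of CYP1B1 may not be fully separated. ALDH3A1, an aldehyde dehydrogenase of the classical dioxin battery, had 192, 211, 174, 161 and 315 against 449, 312, 185, 423 and 365. Its relative ALDH1A3, which makes retinoic acid, had 2.03, 1.72, 0.998, 1.74 and 2.83 against 6.24, 6.3, 2.03, 4.47 and 4.65.

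**Figure D1:**
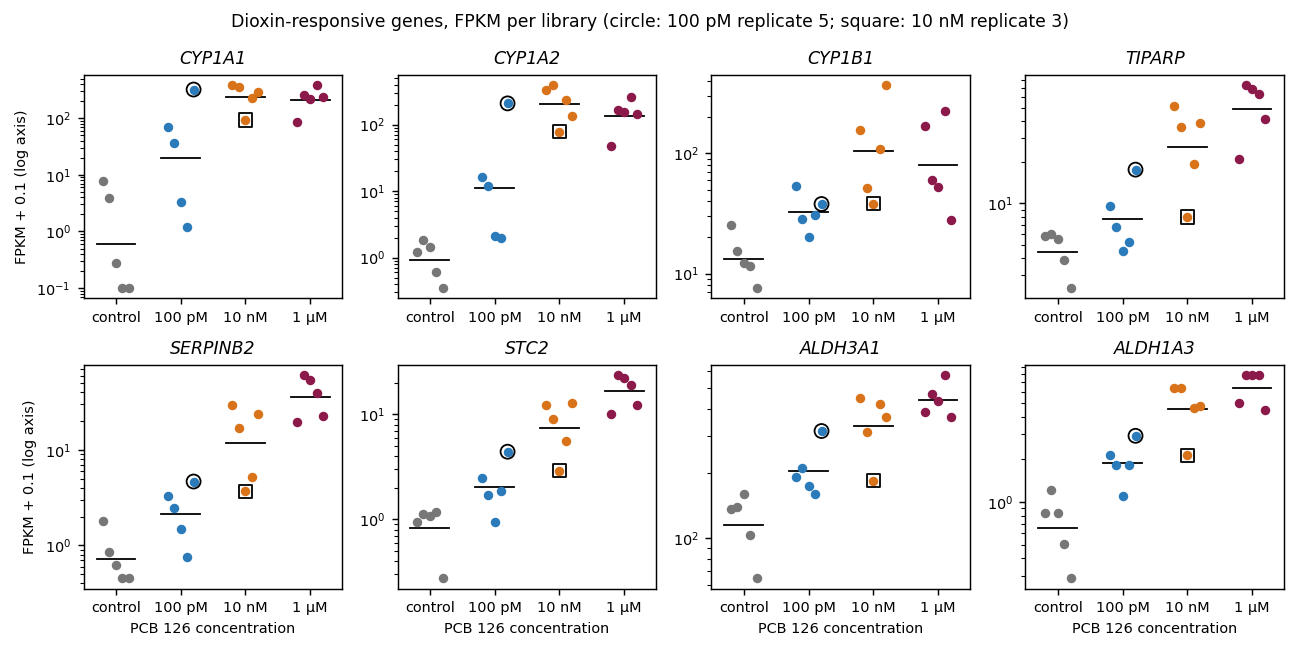
FPKM + 0.1 (log axis) of 8 dioxin-responsive genes in each of the 20 libraries by PCB 126 concentration, where bars are geometric means of 5 libraries, the circle marks 100 pM replicate 5 and the square 10 nM replicate 3. The circled CYP1A1 value of 319 lies among the 10 nM values, and the squared library has the lowest 10 nM value in all 8 panels, 92.1 for CYP1A1 and 3.58 for SERPINB2.

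Of 17 genes listed as dioxin-responsive, 14 passed the filter on variance, which NQO1 and SLC7A5 did not. None of the 14 had an adjusted p under 0.05 in limma, while 10 were higher and 0 lower at an unadjusted p under 0.05, where 0.605% of all genes were higher and 5.12% lower. With array weights 10 of the 14 passed as higher, against 1.06% of all genes. The median log2 difference of the 14 was 1.01, against -0.27 over all genes. Replicate 5 had the highest 100 pM value in 10 of the 14 and lay within the 10 nM range in 13, and 10 nM replicate 3 had the lowest 10 nM value in 12. The list was drawn up with earlier results of these data known, so neither its counts nor its median are independent evidence of direction.

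Some members of the pathway gave little or no sign of a step. AHRR was at 1.88, 3.35, 2.39, 1.25 and 1.92 against 1.92, 4.11, 1.47, 1.41 and 2.24, with a log2 difference of 0.01 (SE 0.29, limma adjusted p = 0.985). UGT1A6, a glucuronosyltransferase often named with the battery, had a mean of 98.2 ± 43.5 (SD, n = 5) against 99.4 ± 59.5 and a log2 difference of -0.06 (SE 0.40), which turned to 0.25 after quantile normalization. Its first exon is its own but it shares the later exons with UGT1A1, so the division of reads between them is uncertain. UGT1A1, which conjugates bilirubin, ran from 45.2 to 287 at 100 pM and from 77.1 to 338 at 10 nM, groups that overlapped over most of their range. Its log2 difference of 0.78 was nonetheless the largest of 12 glucuronosyltransferases tested. Of these 12, 0 were higher at an unadjusted p under 0.05, where 0.605% of all genes were. NQO1, a quinone reductase, had means of 2.76 and 2.6 FPKM.

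Of the 14 components of the receptor complex and its regulators, TIPARP was the 1 with an unadjusted p under 0.05, and 0 were lower at that level. Of all genes 5.72% had such a p. The receptor itself, AHR, was at 50.7, 69, 69.2, 72 and 53.9 against 56.8, 60.7, 31.6, 73.3 and 37.8 (log2 difference -0.32, SE 0.34). The 2 lowest of these values belong to 10 nM replicates 3 and 5, both among the libraries set apart, and the difference was 0.02 without the 5 libraries. ARNT, the partner in DNA binding, had a difference of -0.14 (SE 0.26), near the shift of all genes.

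Leaving out 100 pM replicate 5 was set as a check with its CYP1A1 value known, so the calls that follow for these genes describe the other 9 libraries and are no independent test. Without it the log2 difference of CYP1A2 was 4.95 (SE 0.54, limma adjusted p = 2.37e-05) and that of CYP1A1 4.28 (SE 0.80, adjusted p = 0.039). KRT14, which was at 1.96, 3.44, 4.94 and 2.79 in replicates 1 to 4 but at 0.329 in replicate 5, was lower at 10 nM by a log2 difference of -1.64 (SE 0.25, adjusted p = 0.00433). These 3 genes and PLGLB1 were all that passed of 9846 genes tested, 0.0203% in each direction. The values of 9 of the 9755 genes then lay wholly higher at 10 nM (0.0923%) and those of 224 wholly lower (2.3%), and 5 of the 9 were dioxin-responsive, namely CYP1A1, CYP1A2, CYP1B1-AS1, SERPINB2 and STC2. The replicate was not extreme in every gene, as CYP1B1 shows.

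Without the 5 libraries set apart, which leaves 3 libraries at 10 nM and keeps 100 pM replicate 5, 25 of 8298 genes passed in limma, all higher (0.301%). TIPARP (log2 difference 1.98, SE 0.36, adjusted p = 0.0346), STC2 (1.66, SE 0.28, adjusted p = 0.028), ALDH1A3 (1.24, SE 0.19, adjusted p = 0.0168) and EREG (1.04, SE 0.18, adjusted p = 0.0283) were the 4 dioxin-responsive genes among them. CYP1A1 was not, with a difference of 3.71 (SE 1.30, adjusted p = 0.538), nor was CYP1A2, with 4.59 (SE 1.02, adjusted p = 0.0925). When 100 pM replicate 5 was left out as well, an alternative chosen after seeing the data, 42 of 8175 genes passed, 38 higher (0.465%) and 4 lower (0.0489%), and 23 of the 25 were among them. CYP1A2 then rose by 5.60 on the log2 scale (limma adjusted p = 0.00199), while CYP1A1, at 4.65, did not pass (limma adjusted p = 0.123).

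**Figure D2:**
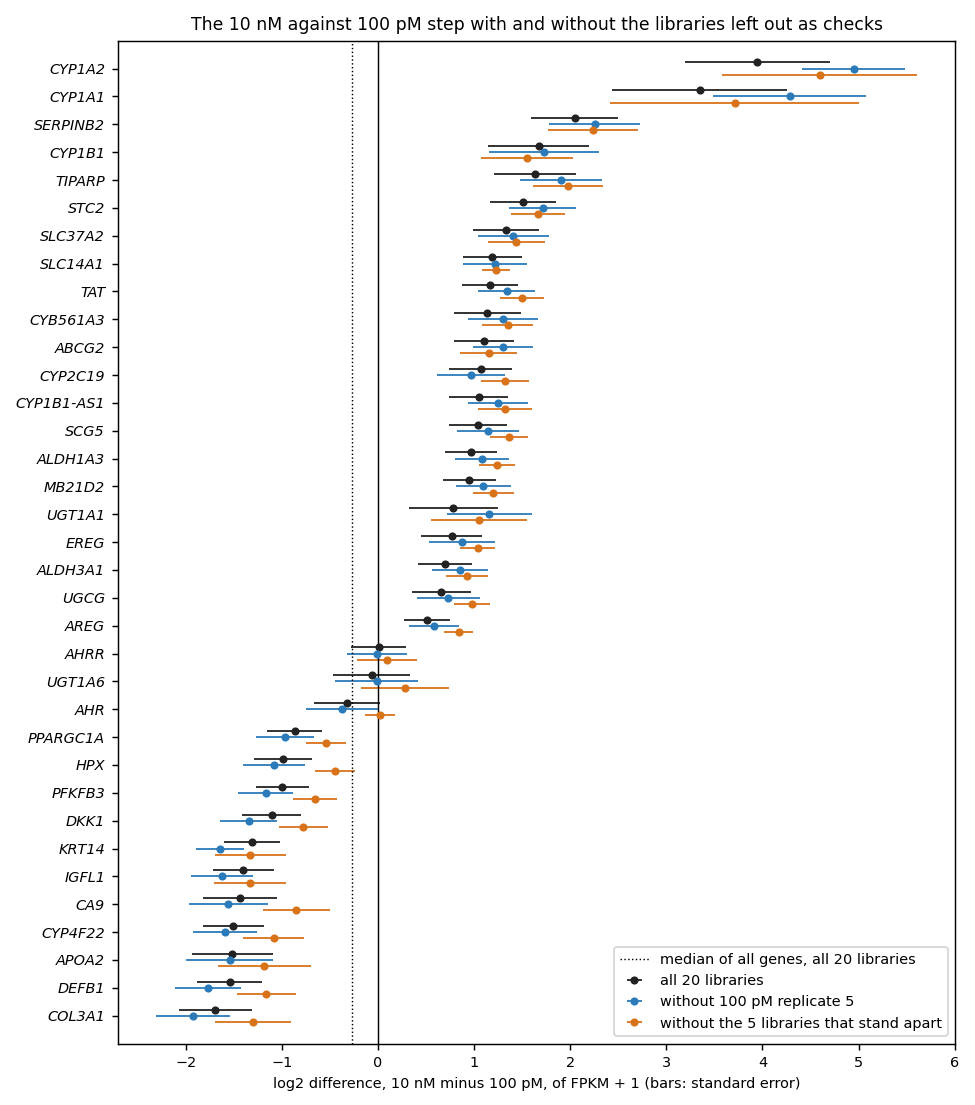
Log2 difference of FPKM + 1 with its standard error, 10 nM minus 100 pM, for 35 genes with all 20 libraries (black), without 100 pM replicate 5 (blue) and without the 5 libraries set apart (orange), where the dotted line is the median of all genes, -0.27. CYP1A2 moves from 3.95 to 4.95 without 100 pM replicate 5, and HPX moves from -0.99 to -0.44 without the 5 libraries.

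Several genes outside the classical battery passed in that fit without the 5 libraries, and they were named after their values were seen. TAT, the tyrosine aminotransferase of differentiated hepatocytes, was at 1.12, 0.732, 0.42, 0.585 and 2.05 at 100 pM and at 4.8, 4.94, 0.882, 3.51 and 3.94 at 10 nM. Only the 10 nM replicate 3 fell within the 100 pM range (log2 difference 1.17, SE 0.29; 1.5 without the 5 libraries, limma adjusted p = 0.0168). SLC14A1, a urea transporter, was between 0.0159 and 0.479 in the 100 pM libraries and at 2.39, 1.64, 0.237, 1.38 and 4.43 at 10 nM. The call for SLC14A1 without the 5 libraries had an adjusted p of 0.00636 in limma. SCG5, a chaperone of neuroendocrine prohormone processing, had means of 14.2 ± 3.65 and 31.7 ± 11.9, and MB21D2 2.61 ± 1.01 and 6.29 ± 2.69 (SD, n = 5). The mean of SLC37A2, a sugar phosphate exchanger, was 5.94 ± 1.75 at 100 pM and 19.2 ± 12.4 at 10 nM, and unlike the others this gene did not pass without the 5 libraries (limma adjusted p = 0.0656) but did without 10 nM replicate 3 alone (limma adjusted p = 0.0394).

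Growth factors of the EGF family were also among the genes that passed without the 5 libraries, and of them EREG is on the dioxin-responsive list. Of 8 family members tested, EREG (epiregulin) and AREG (amphiregulin), both ligands of the EGF receptor, had an unadjusted p under 0.05, 2 higher and 0 lower. At that level 0.605% of all genes were higher and 5.12% lower. EREG was at 2.54, 1.91, 1.55, 1.9 and 3.28 against 6.5, 4.87, 1.76, 5.33 and 5.1, and AREG at 2.02, 2.12, 2.08, 1.45 and 2.73 against 5.57, 4.07, 1.77, 3.89 and 2.46. Both passed without the 5 libraries (limma adjusted p = 0.0283 and 0.0288), and neither did in the unweighted fit to all 20, whereas both did with array weights (limma adjusted p = 0.000451 and 0.000784).

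Of the drug-metabolising enzymes of the CYP2 and CYP3 families with their regulators and reductase, 11 were tested and 0 passed. CYP2C19 and CYP2B6 were higher at an unadjusted p under 0.05, where 0.605% of all genes were higher and 5.12% lower. CYP2E1, POR and CYP2C8 were lower at that level, the last with -0.75 (SE 0.36). After quantile normalization 1 of the 11 was lower at that level, where 4.05% of all genes were, and without the 5 libraries 1 of the 10 tested. CYP2C19 was at 1.79, 3.23, 2.22, 4.69 and 1.7 against 6.05, 9.62, 3.4, 8.49 and 6.53, a log2 difference of 1.07 (SE 0.33), and without the 5 libraries it passed (1.32, limma adjusted p = 0.0478). CYP2B6, the classical target of the receptor CAR, had a difference of 1.00 (SE 0.43), with 10 nM values from 1.15 to 10.4. CYP2E1, which oxidises ethanol, had -0.78 (SE 0.30), and POR, which passes electrons to these enzymes, had -1.06 (SE 0.44).

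UGCG, which adds glucose to ceramide in the first step to glycosphingolipids, was the 1 of 18 ceramide enzymes with an unadjusted p under 0.05, where 5.72% of all genes had one. It was at 33.5, 33.2, 25.1, 23.3 and 36.9 against 73.8, 56.7, 23.7, 51.5 and 48.6, so that 4 of the 5 libraries at 10 nM lay above all of those at 100 pM (log2 difference 0.66, SE 0.31; 0.98 without the 5 libraries, limma adjusted p = 0.0478). CTH, which releases cysteine from cystathionine, had means of 4.2 and 7.21 and a difference of 0.55 (SE 0.30). Of the 7 glycosaminoglycan genes that the study chose on these samples, CEMIP, a hyaluronan-binding protein, was higher with 0.85 (SE 0.34) and GPC6, a glypican, lower with -0.65 (SE 0.27) at an unadjusted p under 0.05. As deposited 0.605% of all genes were higher and 5.12% lower at that level. After quantile normalization 5 of the 7 were higher and 1 lower, where 3.74% of all genes were higher and 4.05% lower.

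Among 19 genes of the collagen matrix COL3A1 and TIMP1 were lower and 0 higher at an unadjusted p under 0.05, where 5.12% of all genes were lower and 0.605% higher. The balance turned with the setting, to 4 higher and 1 lower after quantile normalization and 3 higher and 1 lower without the 5 libraries. After quantile normalization 3.74% of all genes were higher and 4.05% lower. The COL3A1 gene, on chromosome 2 from 188974320 to 189012746, had 7.37, 11.9, 15.1, 18.8 and 5.01 FPKM at 100 pM and 2.06, 2.72, 3.33, 8.06 and 0.312 at 10 nM. Replicate 4 of the 10 nM group was the library that reached into the 100 pM range. The log2 difference was -1.69 (SE 0.38, limma adjusted p = 0.177; exact permutation p = 0.0238), and it was -2.03 and past the threshold without that library. COL3A1 also passed with the replicate block (limma adjusted p = 0.0169), though the run numbers were not taken to pair the samples. LUM, the small proteoglycan lumican that binds collagen, went the other way in the mean, with 63.9 ± 3.92 (SD, n = 5) against 97.8 ± 35.5 (SD, n = 5), and passed without the 5 libraries (0.87, limma adjusted p = 0.0137). The same holds for MMP2, a gelatinase, with 0.76 (limma adjusted p = 0.0283), and for EPYC, a relative of lumican, with 1.15 (limma adjusted p = 0.0166).

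Several other genes with small unadjusted p-values on the lower side were picked once their values had been seen. They do not describe that side as a whole, where ASTN2, KIF20B and IQGAP3 also had small p-values. DEFB1, an antimicrobial defensin, was at 15.6, 18.9, 23.5, 16.1 and 7.87 against 4.77, 5.59, 5.59, 9.6 and 1.19, and only replicate 4 at 10 nM exceeded replicate 5 at 100 pM. IGFL1, an IGF-like secreted protein, was at 2.46, 5.02, 8.41, 4.52 and 1.64 against 0.76, 0.405, 1.01, 2.02 and 0.491, with the overlap again between those libraries. CYP4F22, a fatty acid hydroxylase that makes skin ceramides, was at 5.33, 6.13, 5.24, 10.9 and 4.6 against 1.29, 1.65, 1.13, 5.37 and 0.248. Their log2 differences were -1.54 (SE 0.34), -1.40 (SE 0.32) and -1.50 (SE 0.31), with limma adjusted p-values of 0.177, 0.178 and 0.177. With the replicate block, whose run numbers were not taken to pair the samples, each had a limma adjusted p of 0.0169. DKK1, an inhibitor of Wnt signalling, had 13.1, 17.3, 18.1, 18 and 6.73 against 6.03, 7.62, 4.5, 9.8 and 3.34.

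Of 16 glycolytic genes and HIF-1 targets, CA9 and PFKFB3 were lower and HK2 and SLC2A1 higher at an unadjusted p under 0.05, where 5.12% of all genes were lower and 0.605% higher. CA9, a carbonic anhydrase, was at 14.6, 27.5, 31.4, 35.6 and 16.4 against 7.86, 12.2, 7.81, 21.1 and 1.82 (log2 difference -1.43, SE 0.39), and PFKFB3, which drives glycolysis through fructose 2,6-bisphosphate, had -0.99 (SE 0.28). HK2, a hexokinase, had 0.80 (SE 0.35) and SLC2A1, the glucose transporter GLUT1, 0.75 (SE 0.34). The members of this list thus lay on both sides, and their median of -0.30 was close to that of all genes.

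**Figure D3:**
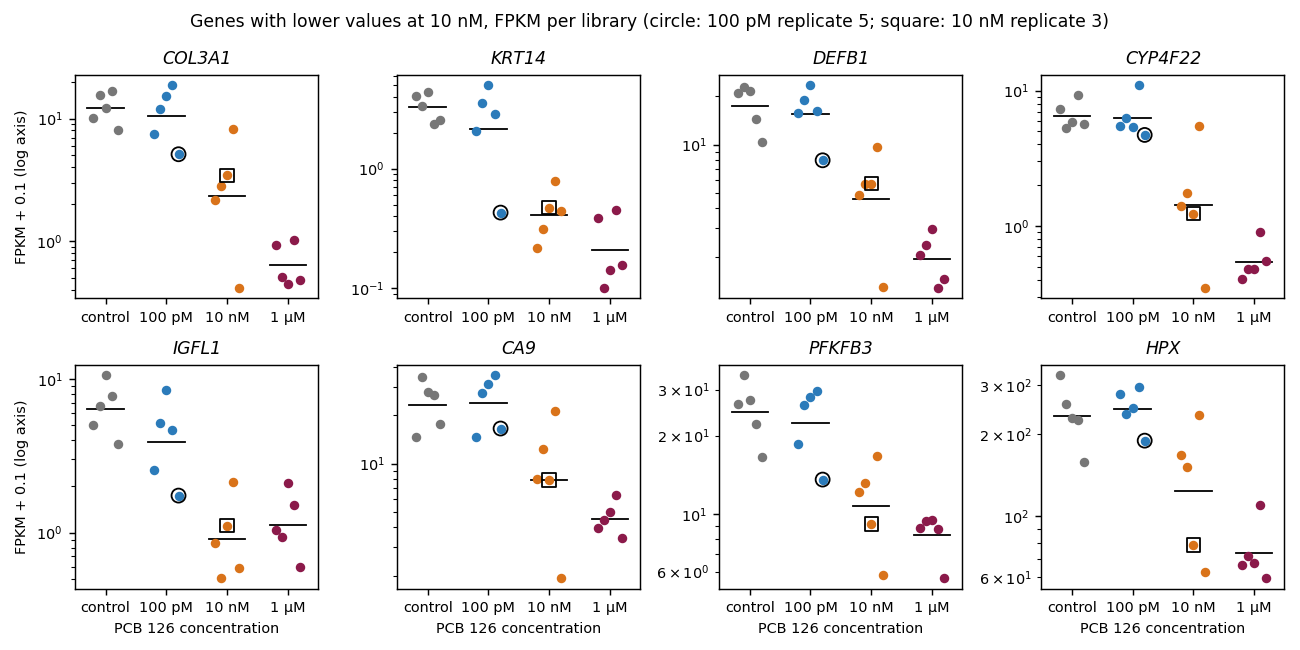
FPKM + 0.1 (log axis) of 8 genes with lower means at 10 nM than at 100 pM in each of the 20 libraries, where bars are geometric means of 5 libraries, the circle marks 100 pM replicate 5 and the square 10 nM replicate 3. The circled KRT14 value of 0.329 lies among the 10 nM values, and the highest COL3A1 value at 10 nM, 8.06 in replicate 4, lies among those at 100 pM.

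Of the 9755 genes, 30 had values at 10 nM that did not overlap with those at 100 pM, 1 higher (0.0103%) and 29 lower (0.297%). ZNF609, a zinc finger protein, was the higher one, with 1.13, 2.95, 3.35, 1.66 and 0.946 against 4.39, 8.4, 3.5, 3.55 and 5.12, but its controls ran from 1.37 to 7.98 and covered most of both groups. ASTN2, a membrane protein of neurons, had the smallest p of the lower ones, with 1.94, 1.76, 4.36, 2.67 and 2.27 against 0.292, 0.168, 0.241, 0.642 and 0.135 (log2 difference -1.44, SE 0.30, limma adjusted p = 0.177; exact permutation p = 0.00794). Its control values, from 0.475 to 3.67, spanned the gap between the groups. IQGAP3, a scaffold protein of dividing cells, had 4.45, 7.64, 6.29, 7.39 and 4.63 against 3.94, 0.299, 2.54, 0.963 and 2.09. AGTR1, the angiotensin II receptor, had a difference of -1.14 (SE 0.34), LIPC, hepatic lipase, -1.12 (SE 0.38), and SLC40A1, the iron exporter ferroportin, -0.78 (SE 0.29).

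The 24 lower genes with the smallest p among them had log2 differences between -1.44 and -0.55. They were chosen for lying wholly lower and for small p, which favours large differences. Whether they depart from the shift of -0.27 was not tested. With libraries divided at random, a gene has no overlap, in either direction, with a probability of 0.00794, the smallest p of the exact permutation test. The shares found as deposited were 0.297% lower and 0.0103% higher. That probability takes no account of the shift of all genes, so no verdict on chance is drawn from the count of 30. The count also depends on the scaling, with 211 genes without overlap after quantile normalization and 368 when libraries were scaled to their 75th percentile. The share without overlap is also set by single libraries, and without 10 nM replicate 4 it grew to 287 genes. No dioxin-responsive gene was among the 30.

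A complete switch was rarer still. Taking 1 FPKM as the limit, 0 of 43478 genes were under it in all 100 pM libraries and at or above it in all 10 nM libraries, and 4 genes went the opposite way (0.0092%). These were ASTN2, DHRS11, NME2P1 and RASL11A, and the last 3 did not pass the filter on variance. DHRS11, a dehydrogenase, was at 1.68, 2.11, 2.12, 1.39 and 1.12 against 0.692, 0.898, 0.819, 0.972 and 0.877, and RASL11A, a small GTPase-like protein, was at 1.27, 1.39, 1.8, 1.74 and 1.04 against 0.731, 0.675, 0.552, 0.812 and 0.493. DHRS11 and RASL11A thus lay close to the limit, while ASTN2 had means of 2.6 at 100 pM and 0.296 at 10 nM. DHRS11 returned above the limit in 2 libraries at 1 µM, with 1.85 and 1.27.

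Hepatocyte products had lower medians than all genes, by an amount that depended on the libraries. Of 18 secreted hepatocyte proteins 8 were lower and 0 higher at an unadjusted p under 0.05, where 5.12% of all genes were lower, with a median log2 difference of -0.65. The count of 8 became 2 after quantile normalization, where 4.05% of all genes were lower and 3.74% higher, and 1 without the 5 libraries. HPX, the haem-binding hemopexin, was at 280, 235, 249, 297 and 189 against 168, 151, 78.7, 234 and 62.5, with a difference of -0.99 (SE 0.30, limma adjusted p = 0.674), and TTR, which carries thyroid hormone, had -0.83 (SE 0.34). The median of this list was -0.34 after quantile normalization, against -0.02 over all genes, and -0.19 without the 5 libraries, against 0.04, and 0 of its members had an adjusted p under 0.05 in either fit. Of 9 apolipoproteins, APOA2 (-1.52, SE 0.42), APOE (-0.89, SE 0.36) and APOC1 (-1.13, SE 0.51) were lower at that unadjusted level. After quantile normalization, and likewise without the 5 libraries, 1 of the 9 was lower and 1 higher, and the APOC1 difference was 0.72 when its most abundant transcript was taken. PPARGC1A, a coactivator of fasting metabolism, had -0.87 (SE 0.28).

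Replication-dependent histones, whose RNA lacks a poly(A) tail and is read here because ribosomal RNA was depleted instead, had the lowest median of the 35 lists as deposited, -0.71, though not without the 5 libraries, where it was -0.30 and that of cytosolic small RNAs and other abundant noncoding RNAs -0.46. At an unadjusted p under 0.05, 7 of the 15 tested were lower and 0 higher, where 5.12% of all genes were lower. The count of 7 became 5 after quantile normalization, where 4.05% of all genes were lower, and 0 without the 5 libraries. Without 100 pM replicate 5 the values of 9 lay wholly below those at 100 pM, where 2.3% of all genes did. HIST1H4C was at 69.9, 103, 88.4, 83.3 and 40.1 against 57.3, 33.3, 27.7, 63.2 and 30.4, so that replicate 5 again stood with the 10 nM libraries. Its log2 difference was -0.86 (SE 0.30, limma adjusted p = 0.675). Of 19 cell cycle genes 18 had a difference below 0, where only 11.4% of all genes had one above 0. Their median was -0.47, and -0.06 without the 5 libraries. None of the 19 had an unadjusted p under 0.05 as deposited, while 8 were lower at that level after 75th-percentile scaling and 4 without 100 pM replicate 5. The shares of all genes in those settings were not computed, so whether these counts exceed them is unknown. After quantile normalization 2 were higher and 1 lower, where 3.74% of all genes were higher and 4.05% lower. Of all lists other than the dioxin-responsive one, medians ran from -0.71 to 0.18 as deposited. In the unweighted fit to all 20 libraries without a block 0 members of any list passed. Array weights gave calls in lists on both sides, such as 2 hepatocyte proteins and 2 histones on the lower, and the replicate block called COL3A1 as lower.

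**Figure D4:**
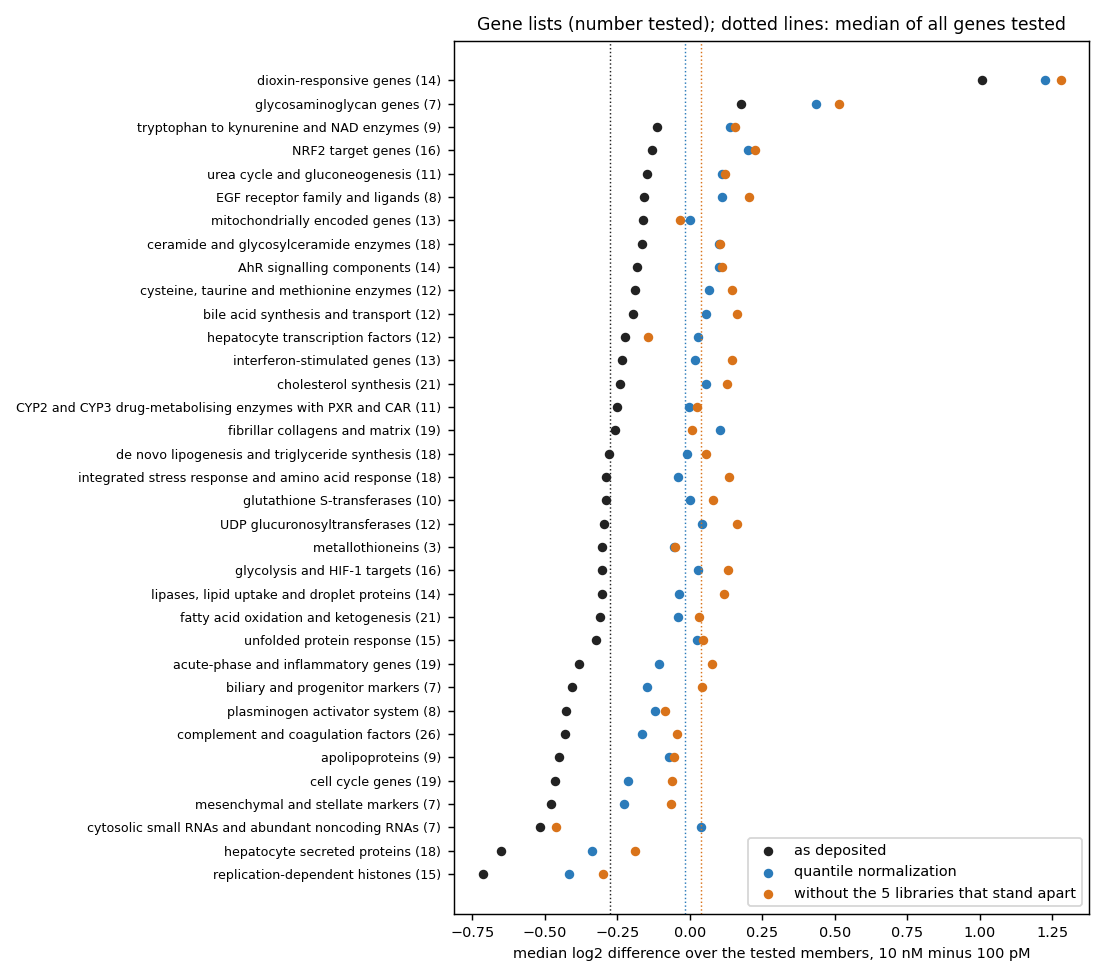
Median log2 difference of FPKM + 1, 10 nM minus 100 pM, over the tested members of 35 gene lists (number tested in brackets) as deposited, after quantile normalization and without the 5 libraries set apart, with dotted lines at the medians of all genes, -0.27, -0.02 and 0.04. The dioxin-responsive genes stand at 1.01, 1.23 and 1.28, apart from the other lists in all 3 settings. The lists were chosen with earlier results of these data known.

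Marker genes were set against the label of a hepatic mixed culture. All 10 hepatocyte markers averaged at least 1 FPKM over the 10 libraries, and their summed FPKM ran from 15198 to 25754 at 100 pM and from 8284 to 21677 at 10 nM. Of 7 biliary or progenitor markers 4 did so, with sums from 255 to 555 and from 172 to 380.3, while KRT7, EPCAM and CFTR averaged under 1 FPKM. Of 8 mesenchymal markers 4 did so, and their sums ran from 68.7 to 81.6 and from 46.9 to 153, most of it LUM, without which they were 9.95 to 15.1 and 5.39 to 15.4. The 4 endothelial markers summed to under 1 FPKM in each library, and of 4 macrophage markers CD163, MARCO and PTPRC averaged under 1. Sums of hepatocyte and of biliary markers overlapped between the groups, and their part in the differences above was not tested. In such bulk samples fewer cells of a type and less RNA per cell cannot be told apart.

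The neighbouring steps share libraries with the step from 100 pM to 10 nM. From control to 100 pM the log2 difference of CYP1A1 was 3.45 (SE 0.91) and that of CYP1A2 2.78 (SE 0.76), both with a limma adjusted p of 1, next to the 3.35 and 3.95 from 100 pM to 10 nM. The mean of CYP1A1 was 2.33 ± 3.4 in the control group and 235 ± 108 at 1 µM (SD, n = 5), and the difference from 10 nM to 1 µM was -0.19 (SE 0.91), less than its error. From control to 10 nM it rose by 6.80 (SE 0.91, limma adjusted p = 0.000411) and CYP1A2 by 6.73 (SE 0.76, adjusted p = 3.27e-05). SERPINB2, STC2 and TIPARP had further differences of 1.5 (SE 0.45), 1.04 (SE 0.34) and 0.89 (SE 0.42) from 10 nM to 1 µM, with limma adjusted p-values of 1, and TAT had 0.08 (SE 0.29). COL3A1 fell by 1.87 from control to 10 nM (SE 0.38, limma adjusted p = 0.0232), nearly all of it in the step from 100 pM, since 100 pM minus control was -0.18, and it had a further -1.20 (SE 0.38) to 1 µM. KRT14 was at 3.25 ± 0.893 in the control group and at 0.146 ± 0.158 at 1 µM (SD, n = 5). Over all genes 0 passed from control to 100 pM, 20 from control to 10 nM and 0 from 10 nM to 1 µM.

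A few large differences belong to names and not to loci. AL139099.5 and RN7SL1, the RNA of the signal recognition particle, are annotated at the same place on chromosome 14, and each of the 10 libraries had its FPKM under only 1 of these names. All 5 libraries at 100 pM had it under AL139099.5, from 26560 to 47832, whereas 10 nM replicates 1, 2 and 3 had 33383, 11909 and 19189 under RN7SL1 and replicates 4 and 5 had 30270 and 27003 under AL139099.5. Fitted separately, the names had log2 differences of -9.15 and 8.56. Their sum was 35121 ± 8138 (SD, n = 5) against 24351 ± 8734 (SD, n = 5), a difference of -0.59 on the log2(FPKM + 1) scale (exact permutation test, p = 0.0873). PLGLB1, a plasminogen-like gene with a near-identical copy, PLGLB2, had 15.2, 17.6, 15.4, 18.4 and 0.0998 against 0.364, 11.9, 0.131, 0.119 and 0.535. Summed with its copy the values were 38.5, 42.9, 39.1, 54.1 and 25.2 against 24.7, 29.6, 9.66, 28.3 and 11.4, a difference of -1.01 (exact permutation test, p = 0.0238), so the division between the copies is uncertain.

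**Figure D5:**
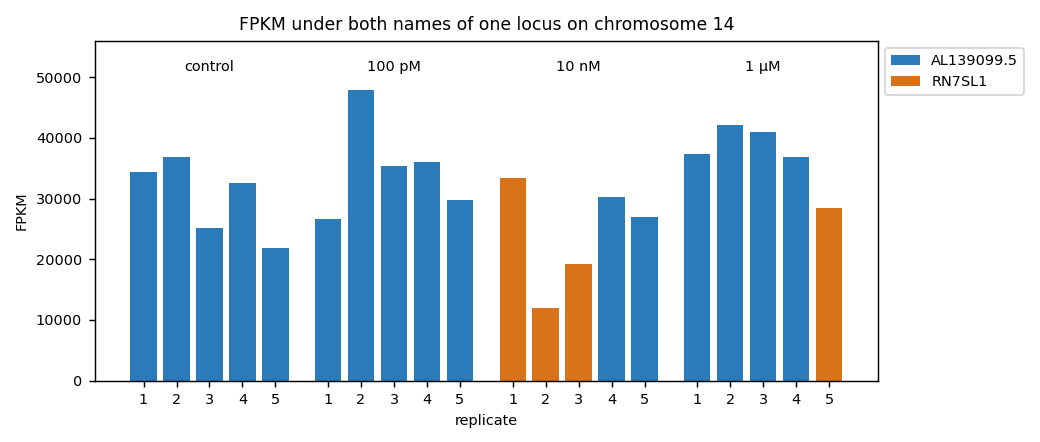
FPKM under the names AL139099.5 (blue) and RN7SL1 (orange) in each of the 20 libraries by group and replicate, where each bar is 1 library. The 100 pM libraries hold 26560 to 47832 FPKM under the first name, and 3 of the 5 libraries at 10 nM hold theirs under the second.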

How the data were processed

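RNA sequencing of the 5 libraries at 100 pM and the 5 at 10 nM of PCB 126 was analysed, with the 5 control and the 5 1 µM libraries in the same fit. The authors used HISAT2 for alignment against GRCh38 and StringTie for assembly and quantification, and the FPKM they deposited cover 234960 transcripts in each library, neither pooled nor filtered. Among the deposited columns 3 held values just below 0 and were treated as a score, and the 4 such values were set to 0. FPKM are not counts, depth behind single values is unknown, and the number of libraries limits the precision. The table on glyphosate was not used.

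FPKM were summed per gene name (43478 names above 0), genes with a variance over 1 were kept, and log2(FPKM + 1) was tested with limma 3.58.1 in R 4.3.3, Benjamini-Hochberg adjustment and a threshold of 0.05. Single genes were also compared by 2-sided exact permutation tests. The fit was tested on simulated data. Python 3.11.15 and pandas 2.3.3 were used otherwise.

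The comparison and the 35 gene lists were chosen with earlier results of these data known. Genes were named by rule: the 25 without overlap with the smallest p (at most), all switches at 1 FPKM, 10 genes known beforehand and up to 4 per list by p. TAT, SLC14A1, SCG5, MB21D2, SLC37A2, MMP2, EPYC, KRT14, DEFB1, IGFL1, CYP4F22, DKK1, CYP2C8, PLGLB1 and AL139099.5, like any other name the rule does not give, were picked once values had been seen. Alternatives were a pseudocount of 0.1, other filters, scalings and models, a replicate block, subsets of libraries, and leaving out each library. Some genes of these lists are not reported here.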

Additional observations from a re-analysis of the deposited data

Results flagged for a closer look

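With each gene named in the text examined at 100 pM and at 10 nM on the log2(FPKM + 1) scale (152 groups of 5), 5 groups had a library whose gap to the nearest of the others passed Dixon's 95% critical value, where chance gives about 1 in 20. EREG in 10 nM replicate 3 was 1.76 FPKM while the other 4 ran from 4.87 to 6.5. TAT in the same library was 0.882, and the others ran from 3.51 to 4.94. PPARGC1A in 100 pM replicate 5 was 3.68, below 5.16 to 5.85 in the others. PLGLB1 in 100 pM replicate 5 was 0.0998 against 15.2 to 18.4, and in 10 nM replicate 2 it was 11.9 against 0.119 to 0.535. For CYP1A1 and CYP1A2 no library was set apart in this way. The cause was not tested for any of these values.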

How the results depend on the processing

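With all 20 libraries the count of 0 genes past the threshold was also 0 with a pseudocount of 0.1, a mean FPKM of at least 1, either scaling, only the 10 libraries, an ordinary linear model with or without a library-size term, a mean-variance trend and the most abundant transcript. It was 2 (1 higher, MIR548O2 lower and GPR12 higher) with no filter on low values, 260 (103 higher, 157 lower) with array weights, which give less weight to libraries that deviate, and 25 (25 higher) without the 5 libraries set apart. Leaving out 1 library gave 0 to 8 genes (0 to 8 higher, 0 to 2 lower): 4 without 100 pM replicate 5, 8 without 10 nM replicate 3 and 2 without 10 nM replicate 4. Genes without overlap (30) numbered 368 after 75th-percentile scaling, 211 after quantile normalization, 393 without the 5 libraries and 35 to 287 with 1 library left out; 64, 46 and 233 without 100 pM replicates 1, 4 and 5, and 89, 66, 131 and 287 without 10 nM replicates 1 to 4. Switches at 1 FPKM (4) numbered 7 after 75th-percentile scaling, 19 without the 5 libraries and 6 to 18 with 1 library left out. Alternatives chosen after seeing the data, each without 100 pM replicate 5, gave 27 genes (18 higher, 9 lower) with 75th-percentile scaling, 57 (45 higher, 12 lower) with quantile normalization and 42 (38 higher, 4 lower) without the 5 libraries, the last with 629 genes without overlap and 40 switches.

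Deviations of libraries with the same run number correlated at -0.03 to 0.13 over 5 pairs, against -0.10 to 0.06 between different numbers, and 4 of the 5 libraries at 100 pM were closest to their own number, a hint from the data and not from the design. As only the pair of run 1 passed 0.1, the numbers were not taken to pair the samples. With the replicate block 4 genes passed, 4 lower (CYP4F22, IGFL1, COL3A1 and DEFB1), and with the replicate block and without 100 pM replicate 5 there were 8 (2 higher, 6 lower).

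Of 71 named genes 66 kept their direction in all alternatives. AHRR (0.01) ran from -0.11 to 0.13 with 1 library left out and was below 0 in some of these fits. UGT1A6 turned to 0.017 with 75th-percentile scaling, 0.25 with quantile normalization, 0.50 with array weights, 0.28 without the 5 libraries and -0.36 to 0.23 with 1 library left out; without 100 pM replicate 5 it was 0.15, 0.37, 0.049 (replicate block) and 0.33 under these settings. AHR was 0.020 without the 5 libraries, ARNT 0.10 with quantile normalization and -0.31 to 0.027 with 1 library left out, and APOC1 0.72 with the most abundant transcript. Apart from these constructions, the cause of the changes was not tested. FPKM carry no counts, so what depth limits could not be computed.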
